A study of Mus musculus with 6 samples.

Results

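Sclerostin, encoded by Sost, and the secreted Wnt inhibitors Sfrp1, Sfrp2, Sfrp5, Frzb, Dkk2, Dkk3 and Wif1 were examined in mouse hearts together with Lrp5 and Lrp6, the co-receptors that sclerostin binds. The set holds 10 of the 46095 gene symbols counted and was picked by name. It was drawn up with the difference between the genotypes already known, above all that of Sost. The contrast of these 10 genes is therefore described here without a p-value, and counts of those past a threshold are given only as a description. RNA was sequenced from 3 hearts labelled STAT3cKO, whose cardiomyocytes lack the transcription factor STAT3, and from 3 wild-type hearts. The question put by the series was which pathways that bear on heart function differ in STAT3cKO mice. The sources used here do not give the Cre driver, the strain, the age or the sex of the mice, the part of the heart that was taken, or whether each library is a separate animal. If the libraries share animals, the p-values measure only a technical spread.

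Wnt ligands are lipid-modified proteins that bring a Frizzled receptor and the co-receptor LRP5 or LRP6 together, after which beta-catenin escapes degradation and acts with TCF and LEF factors in the nucleus. Secreted inhibitors act at different points of this step. The secreted Frizzled-related proteins (Sfrp1, Sfrp2, Sfrp5 and Frzb) and Wif1 bind Wnt ligands, whereas sclerostin and Dickkopf proteins such as Dkk2 bind the co-receptors. Sclerostin is best known as a product of osteocytes that restrains bone formation, and it is also made in vascular smooth muscle. In the adult heart, ventricular muscle cells are joined by fibroblasts, vessel wall cells, valve cells and atrial muscle, each of which can supply secreted inhibitors to a whole-tissue sample.

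Promoter sequence is shown for Sost and Sfrp5, the inhibitors whose genotypes did not overlap, and for Frzb, which carries a match to the STAT motif. Each run is the 250 bases upstream of the RefSeq start on GRCm38.p6, 5′ to 3′ on the strand of the gene, and RefSeq windows were matched for 6 of the 10 genes (also Sfrp2, Dkk2 and Wif1). Capitals mark TTTAAA in Sost and the STAT match in Frzb.
Sost, chr11:101967016-101967265, minus strand: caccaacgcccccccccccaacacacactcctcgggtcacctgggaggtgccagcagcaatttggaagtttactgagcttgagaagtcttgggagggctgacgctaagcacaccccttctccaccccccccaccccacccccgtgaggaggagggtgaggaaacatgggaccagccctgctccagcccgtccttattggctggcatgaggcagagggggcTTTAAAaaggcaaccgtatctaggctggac
Sfrp5, chr19:42202253-42202502, minus strand: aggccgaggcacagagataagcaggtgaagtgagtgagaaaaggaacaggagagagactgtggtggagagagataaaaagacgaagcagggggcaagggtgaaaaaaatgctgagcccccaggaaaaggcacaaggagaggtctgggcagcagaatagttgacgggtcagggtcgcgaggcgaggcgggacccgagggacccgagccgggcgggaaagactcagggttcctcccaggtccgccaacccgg
Frzb, chr2:80447397-80447646, minus strand: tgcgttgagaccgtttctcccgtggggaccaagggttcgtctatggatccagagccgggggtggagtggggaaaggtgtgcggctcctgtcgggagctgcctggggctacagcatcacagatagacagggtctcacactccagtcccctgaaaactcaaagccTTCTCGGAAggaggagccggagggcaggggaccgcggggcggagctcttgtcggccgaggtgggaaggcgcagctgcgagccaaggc
The STAT motif searched was TTCNNNGAA, which reads the same on both strands, and 7.02% of 32851 promoter windows of this length held it. The TCF and LEF motif was CTTTGAT on either strand, held by 3.21% of windows. No window among the 6 genes held the TCF and LEF motif, and Frzb alone held the STAT motif, which begins 87 bases before its start. The Sost window held TTTAAA, beginning 30 bases before the start. This run, which resembles a TATA box, was chosen after the sequence was seen, reads the same on both strands and was held by 12.1% of all windows. No marked motif overlapped another. A match is a run of letters and not a measured binding site.

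Total counts ran from 15416877 to 18264052 per heart. Levels are given as CPM, counts scaled to library size, adjusted by the trimmed mean of M values (TMM), and fold changes are log2 STAT3cKO minus wild type with the standard error (SE) of the edgeR fit. Genes whose Benjamini-Hochberg adjusted p over all 14484 genes tested was under 0.05 are called higher or lower. Values per heart follow the order of replicates 1, 3 and 4 for wild type and 3, 6 and 91 for STAT3cKO. In that order Stat3, the deleted gene, stood at 99.7, 85.8 and 97.5 CPM in wild type against 52.9, 63.7 and 59.6 CPM in STAT3cKO. It was lower (-0.68 ± 0.10 log2 units, SE; edgeR adjusted p = 0.000677), in the direction of the labels, although its exons share 72 bases with those of Stat5a. The 10 cardiomyocyte markers were abundant in every heart, while 3 libraries stood apart in other markers. Wild type replicate 3 had the highest sums of atrial muscle markers except for STAT3cKO replicate 91, 512 and 742 CPM against 69.5 to 257 in the other 4 hearts. The 742 CPM came mostly from Nppa, at 721 CPM, while the atrial light chain Myl7 was at 161 CPM in wild type replicate 3 and at 0.985 CPM in STAT3cKO replicate 91. Valve and cartilage-like markers summed to 211 CPM in wild type replicate 3 and to 171 CPM in STAT3cKO replicate 91, against 56.0 to 66.9 CPM in the other 4 hearts. Red blood cell markers, 5 of 6 tested higher, summed to 692 CPM in STAT3cKO replicate 6, to 338 and 345 CPM in the other STAT3cKO hearts and to 92.5 to 161 CPM in wild type. Among all genes tested, 13.2% were higher.

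Sost transcripts were scarce in every heart and scarcer in STAT3cKO. Sost lies on chromosome 11, 101962458 to 101967015, close to 1 Mb from Stat3, and its transcript of 2066 nt received 57, 107 and 68 counts in wild type against 4, 10 and 20 in STAT3cKO. As levels, these were 2.93, 6.38 and 3.73 CPM in wild type and 0.273, 0.649 and 1.09 CPM in STAT3cKO. The groups did not overlap, with wild type replicate 3 the highest heart and STAT3cKO replicate 3 the lowest. The log2 fold change was -2.63 ± 0.44 (SE), from 4.35 ± 1.81 CPM to 0.672 ± 0.411 CPM (SD, n = 3 each), and the fitted ratio is 6.21-fold. Exact Poisson 95% intervals, which cover counting error only, reached 1.69 CPM at most in STAT3cKO, in replicate 91, and went no lower than 2.22 CPM in wild type, in replicate 1. Sost was picked with its difference known and entered the test through its wild-type counts, so these intervals only describe it. With STAT3cKO replicate 91 left out the fold change was -3.19, and with wild type replicate 3 left out it was -2.26. A fit with an offset for transcript length and GC content gave -2.72. In bulk heart RNA, fewer cells of a type and less RNA per cell cannot be told apart.

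Bone is the textbook source of Sost, and the defining bone markers were at or near 0 in these hearts. Mepe and Ibsp had no count, and Dmp1, Phex, Fgf23, Bglap, Bglap2 and Sp7 stayed at or below 0.205 CPM in every heart. The sum of the 12 bone markers was 31.6 to 38.9 CPM in wild type and 22.9 to 30.7 CPM in STAT3cKO, nearly all of it Alpl, a phosphatase that other cells also make. Most vascular smooth muscle markers were lower, as Sost was. Of 10 such genes, 6 were lower, 1 (Smtn) was higher and 3 did not pass, beside 12.6% lower and 13.2% higher over all genes tested. Their median log2 fold change was -2.04, against -0.0 for all genes tested. The smooth muscle actin Acta2 was at 123, 146 and 104 CPM in wild type and at 27.2, 32.3 and 28.2 CPM in STAT3cKO. The smooth muscle myosin Myh11 was at 80.1, 122 and 52.9 CPM in wild type and at 9.96, 16.2 and 10.9 CPM in STAT3cKO. None of the 10 markers was at 0, and their sum was 429 to 656 CPM in wild type and 300.0 to 397 CPM in STAT3cKO. Most of the fall in that sum lay in Acta2 and Myh11, and the sum includes Smtn, which was higher. Like Sost, Acta2 and Myh11 were highest in wild type replicate 3. Markers of several other cell types were also lower, though not of all. Macrophage markers, 7 of 10 lower, summed to 297 to 353 CPM in wild type and 157 to 230 CPM in STAT3cKO. Schwann cell and nerve sheath markers, 4 of 8 tested lower with a median of -1.23, summed to 37.1 to 49.7 CPM and 24.3 to 31.8 CPM. Endothelial markers, 7 of 11 tested lower with a median of -0.5, summed to 2000.0 to 2380 CPM and 1630 to 1840 CPM. Pericyte markers, 4 of 9 lower, summed to 1380 to 1560 CPM and 920.0 to 1200.0 CPM, and mesothelial and epicardial markers, 2 of 9 tested lower, to 37.5 to 43.3 CPM and 19.7 to 34.7 CPM. Large artery and elastic matrix markers, 2 of 9 lower with a median of -0.22, had overlapping sums of 286 to 393 CPM and 262 to 397 CPM. Cardiomyocyte markers, 2 of 10 lower and 3 higher, summed to 57800 to 64600 CPM and 59600 to 72000 CPM. The part of the content of any of these cell types in the Sost difference was not tested.

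**Figure D1:**
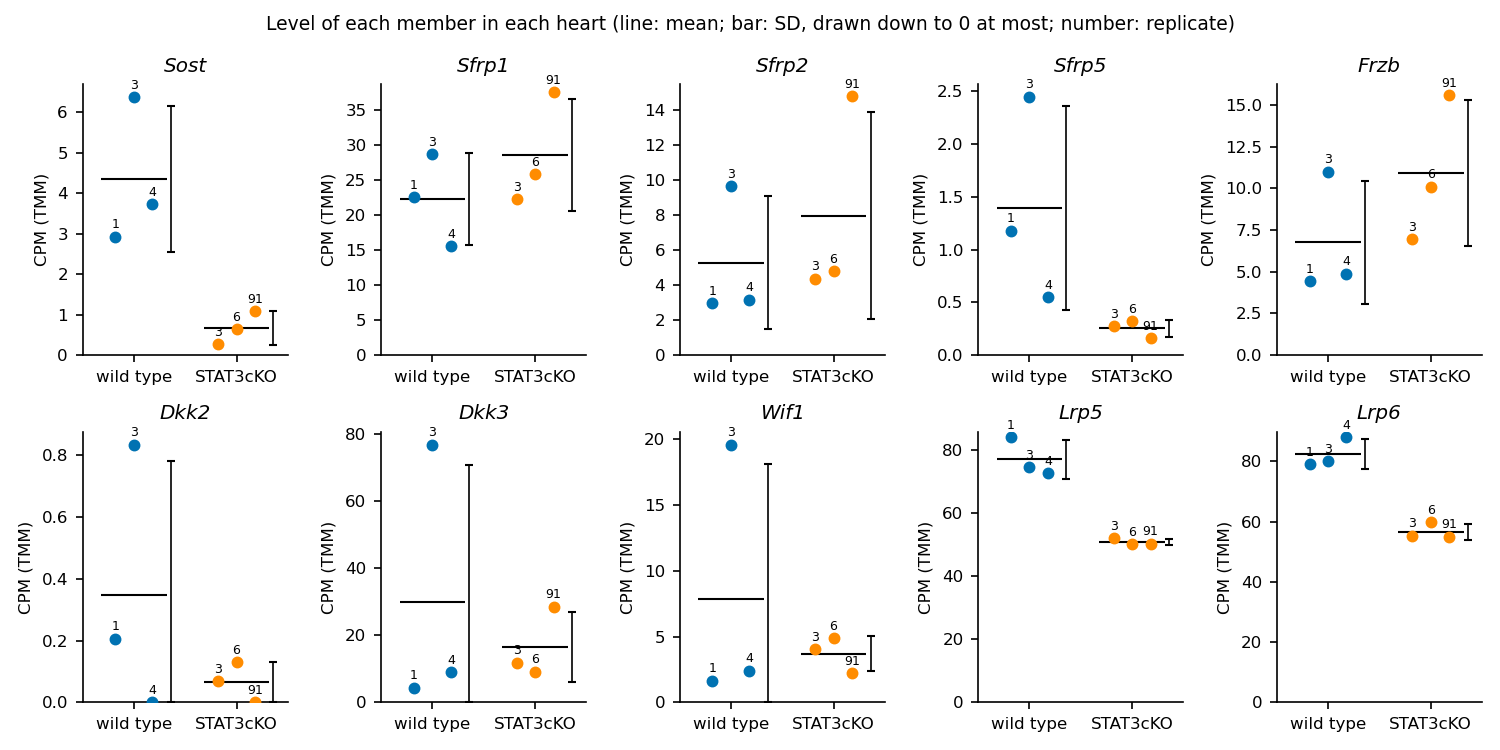
Level of each of the 10 genes in each heart in TMM-scaled CPM, with the replicate number above each point, a line at the group mean and a bar for the SD (n = 3, cut at 0). Wild-type and STAT3cKO points are apart for Sost, Sfrp5, Lrp5 and Lrp6, and wild type replicate 3 is far above its group for Dkk3 and Wif1.

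Among the inhibitors that bind Wnt ligands, Sfrp5 was the one whose groups did not overlap. Sfrp5, a secreted Frizzled-related protein, received 23, 41 and 10 counts in wild type against 4, 5 and 3 in STAT3cKO, or 1.18, 2.45 and 0.549 CPM and 0.273, 0.325 and 0.164 CPM. Wild type replicate 4 was nearest to the STAT3cKO hearts. Its exact Poisson 95% interval, 0.263 to 1.01 CPM, overlapped that of every STAT3cKO heart. Sfrp5 was too low for the test with all 6 hearts. A fit with no filter on low counts put its log2 fold change at -2.45 ± 0.55 (SE).

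Sfrp1, Sfrp2 and Frzb, made largely by fibroblasts and other stromal cells, had higher means in STAT3cKO but overlapping groups. Sfrp1 was at 22.6, 28.7 and 15.6 CPM in wild type and at 22.3, 25.9 and 37.6 CPM in STAT3cKO, a log2 fold change of 0.36 ± 0.27 (SE). Sfrp2 was at 2.99, 9.66 and 3.18 CPM in wild type and at 4.37, 4.80 and 14.8 CPM in STAT3cKO. Its fold change of 0.63 ± 0.76 (SE) became -0.19 without STAT3cKO replicate 91 and 1.38 without wild type replicate 3, and its exons overlap those of the antisense model Gm26771, so reads of the pair could not be told apart. Frzb, which binds Wnt ligands and was first studied in cartilage, was at 4.43, 11.0 and 4.88 CPM in wild type and at 6.96, 10.1 and 15.6 CPM in STAT3cKO. Its fold change was 0.70 ± 0.46 (SE). Without wild type replicate 3 it was 1.23 ± 0.31 (SE).

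All 3 of these genes were highest in wild type replicate 3 within the wild-type group and in replicate 91 within the STAT3cKO group. The summed fibroblast markers were also highest in those hearts within each group. They came to 3490, 4450 and 2980 CPM in wild type and to 3860, 4130 and 5000 CPM in STAT3cKO, and none of the 14 markers was at 0. The list did not move as 1, since 3 of the 14 were lower and 1 higher, with a median log2 fold change of 0.08, and Col1a2 was among the lower ones at -0.72. Shares over all genes tested were 12.6% lower and 13.2% higher. Per 1000 CPM of fibroblast markers, Sfrp1 went from 6.05 ± 0.72 CPM in wild type to 6.52 ± 0.89 CPM in STAT3cKO (SD, n = 3 each). Sfrp2 was 1.36 ± 0.706 and 1.75 ± 1.04 CPM on that scale, and Frzb 1.79 ± 0.62 and 2.46 ± 0.658 CPM (SD, n = 3 each). These differences are within about 1 SD of either group for Sfrp1 and Sfrp2 and close to 1 SD for Frzb. The Frzb groups overlapped on that scale, with wild type replicate 3 at 2.48 CPM and STAT3cKO replicate 3 at 1.8 CPM. The part of fibroblast content in the levels was not tested.

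Wif1, which binds Wnt ligands through its own domain, and Dkk3, a divergent Dickkopf protein without an established role at LRP5 or LRP6, were set by 1 heart. Dkk3 was at 4.43, 76.7 and 8.94 CPM in wild type and at 11.8, 9.15 and 28.5 CPM in STAT3cKO. Wif1 was at 1.65, 19.6 and 2.41 CPM in wild type and at 4.03, 4.87 and 2.24 CPM in STAT3cKO. The groups overlapped for both genes, and the lone high values were those of wild type replicate 3. The log2 fold change of Dkk3 was -0.84 ± 1.30 (SE) with all hearts and 1.31 ± 0.72 (SE) without that heart. That of Wif1 went from -1.08 ± 1.17 to 0.86 ± 0.36 (SE) in the same way. Limma-voom gave Dkk3 a value of 0.12 with all hearts. No direction can therefore be given for either gene.

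The heart with high Dkk3 and Wif1 also carried atrial and valve transcripts. Across the 6 hearts in the same order, Myl7 was at 0.875, 161, 23.4, 34.9, 0.844 and 0.985 CPM, and the atrial calcium pump regulator Sln was at 0.154, 27.0, 5.76, 11.3, 0.0649 and 0 CPM. The cartilage matrix gene Chad was at 18.9 CPM in wild type replicate 3 and at no more than 0.549 CPM elsewhere. Fmod, a matrix proteoglycan of tendon and valve, was at 45.9 CPM there and at 3.62 to 13.1 CPM elsewhere. The next highest Dkk3 level, in STAT3cKO replicate 91, stood beside low Myl7 and beside the highest Comp, a cartilage matrix gene, at 97.0 CPM. Of the 6 atrial markers and the 12 valve and cartilage-like markers, none was at 0 in all hearts, and Bmp10 and Col2a1 were close to it. The part of tissue content in the Dkk3 and Wif1 levels was not tested.

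**Figure D2:**
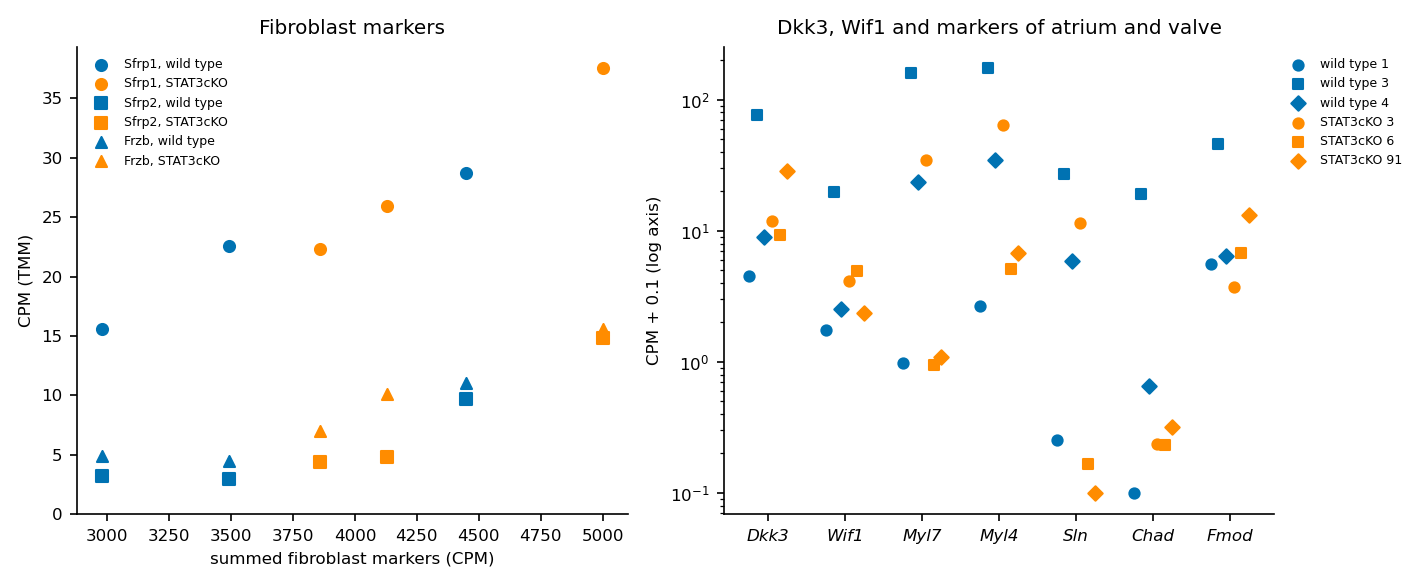
Left, Sfrp1, Sfrp2 and Frzb (CPM) against the summed fibroblast markers (CPM), 1 point per heart, from 2980 to 5000 CPM on the horizontal axis. Right, Dkk3, Wif1 and 5 chosen atrial, valve or cartilage markers by heart on a log axis of CPM + 0.1. Wild type replicate 3 (blue square) is the highest heart for every gene drawn. Markers not drawn include Nppa, Comp and Scx, which were highest in STAT3cKO replicate 91.

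Of the Dickkopf proteins that bind the co-receptors, Dkk2 was barely detected. It received 4, 14 and 0 counts in wild type against 1, 2 and 0 in STAT3cKO, which was too low for the test, and again wild type replicate 3 was highest. The groups overlapped at 0 and no fold change is given. Dkk1 had 3 counts, all in STAT3cKO replicate 6, and Dkk4 had none, so Dkk2 was the 1 Dickkopf gene of this kind with counts in more than 1 heart. Sostdc1, the closest relative of Sost and a binder of both co-receptors and BMP proteins, had 3, 9 and 2 counts in the wild-type hearts and none in any STAT3cKO heart, also too low for the test.

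The co-receptors themselves were abundant and were lower in STAT3cKO with little spread. Lrp5 was at 84.1, 74.6 and 72.6 CPM in wild type and at 52.0, 50.1 and 50.3 CPM in STAT3cKO, a log2 fold change of -0.60 ± 0.09 (SE). Lrp6 was at 79.1, 80.1 and 88.1 CPM in wild type and at 55.3, 59.7 and 55.0 CPM in STAT3cKO, a log2 fold change of -0.54 ± 0.09 (SE). The groups did not overlap for either gene, and the fitted ratios are 1.52-fold and 1.46-fold. Both transcripts are long, 5161 nt for Lrp5 and 9368 nt for Lrp6, and long transcripts as a class were lower in STAT3cKO. The 2827 genes tested with transcripts of 5000 nt or longer had a median log2 fold change of -0.25 and 31.7% of them were lower, against 0.06 and 8.04% for shorter ones. With the length and GC offset, the fold change of Lrp5 was -0.43 ± 0.08 (SE) and that of Lrp6 was -0.17 ± 0.08 (SE). In that fit Lrp6 was no longer called lower.

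Counted together, 8 of the 10 genes were tested. Of these, 3 were lower (Sost, Lrp5 and Lrp6), none was higher and 5 did not pass, beside 12.6% of all genes tested called lower and 13.2% called higher. The same 3 of the 8 had no overlap with every STAT3cKO heart lower, and none with every STAT3cKO heart higher, beside 21.5% of all genes tested in the lower direction and 21.5% in the higher. Nothing is read from these counts, since the contrast was known when the genes were chosen. The median log2 fold change was -0.57 over the 8 genes and -0.24 over the 6 secreted inhibitors among them. The spread between hearts of 1 genotype set the secreted genes apart from the co-receptors. The coefficient of variation in wild type was 5.99% for Lrp6 and 7.97% for Lrp5, but 29.4% for Sfrp1, 41.5% for Sost and 135% for Dkk3.

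**Figure D3:**
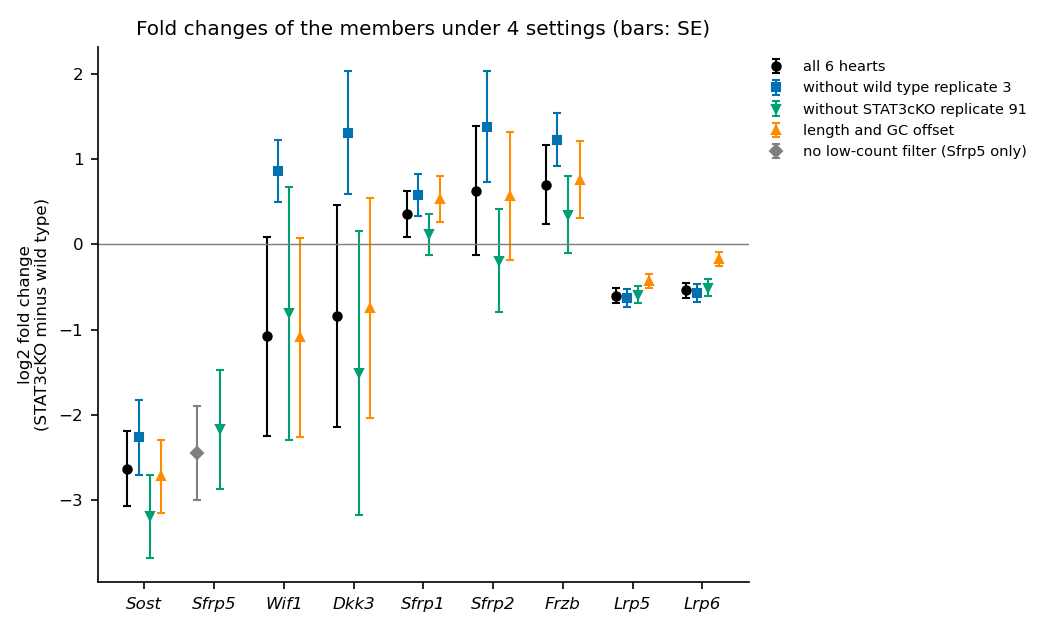
Log2 fold change (STAT3cKO minus wild type, bars SE) of each gene with a fit, with all 6 hearts, without wild type replicate 3, without STAT3cKO replicate 91 and with the length and GC offset (Sfrp5 also with no filter on low counts, in grey). Sost, Lrp5 and Lrp6 are below 0 in every fit drawn, whereas Wif1 and Dkk3 move from -1.08 and -0.84 to 0.86 and 1.31 without wild type replicate 3.

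Levels per length were compared as RPKM, the CPM divided by transcript length in kilobases. In wild type, Lrp5 was highest at 14.9 ± 1.19 RPKM, followed by Dkk3 at 8.93 ± 12.0, Lrp6 at 8.80 ± 0.527 and Sfrp1 at 5.10 ± 1.50 RPKM (SD, n = 3). Wif1 at 3.44 ± 4.43, Sfrp2 at 2.63 ± 1.90, Frzb at 2.15 ± 1.17 and Sost at 2.11 ± 0.874 RPKM (SD, n = 3) followed, and these 4 neighbours did not differ beyond their spread. Dkk3 holds its place through wild type replicate 3, at 22.8 RPKM against 1.32 and 2.66 RPKM in the other wild-type hearts. Sfrp5 at 0.733 ± 0.508 RPKM and Dkk2 at 0.0937 ± 0.117 RPKM (SD, n = 3) were lowest. In STAT3cKO, Sost was at 0.325 ± 0.199 RPKM, between Wif1 at 1.62 ± 0.584 and Sfrp5 at 0.134 ± 0.0431 RPKM (SD, n = 3). In STAT3cKO hearts Sost thus stood below Wif1 by more than their SDs and near Sfrp5. There Lrp5 was highest at 9.84 ± 0.20 RPKM, followed by Sfrp1 at 6.54 ± 1.82 and Lrp6 at 6.05 ± 0.28 RPKM (SD, n = 3). Sfrp1 and Lrp6 did not differ beyond their spread, and Sfrp1 stood above Lrp6 in replicate 91 alone, at 8.59 against 5.87 RPKM.

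The wider Wnt pathway was covered by 9 lists of other genes, 120 in all, of which 110 had a count and 84 were tested. Of these, 20 were lower and 4 higher in STAT3cKO and 60 did not pass, with a median log2 fold change of -0.25 against -0.0 for all genes tested. Over all genes tested, 12.6% were lower and 13.2% higher. Their transcripts were long, with a median of 4178 nt against 3063 nt. With the length and GC offset 9 were lower and 6 higher, with a median of -0.13, beside 7.51% lower and 10.5% higher over all genes. With it, 13 of the 24 genes called kept their call in the same direction. Without wild type replicate 3, 10 of the 24 kept it.

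Secreted inhibitors outside the set were mostly too low to test. Of 9 listed, 7 had a count. Igfbp4, a binding protein for insulin-like growth factors that also interferes with Wnt co-receptors, was the 1 tested. It was at 97.4 ± 16.3 CPM (SD, n = 3) in wild type against 104 ± 16.5 CPM (SD, n = 3) in STAT3cKO. Its fold change of 0.10 ± 0.14 (SE; edgeR adjusted p = 0.645) turned to -0.01 when libraries were scaled by size alone, and to -0.04 without wild type replicate 4 and -0.03 without STAT3cKO replicate 91. Sfrp4, Dkkl1, Notum and Draxin had at most 8 counts in a heart, and Cer1 had none. At the membrane, none of 6 tested partners and inhibitors passed. The smallest p there was that of Trabd2b, a protease that inactivates Wnt ligands, at -0.31 ± 0.11 log2 units (SE; edgeR adjusted p = 0.0539).

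Upstream of the co-receptors, the few calls were all lower, beside 12.6% lower and 13.2% higher over all genes tested. Of 7 ligand and ligand-secretion genes tested, 1 was lower. This was Wls, the carrier that takes Wnt ligands to the cell surface, at 61.2 ± 4.67 CPM (SD, n = 3) in wild type against 47.1 ± 3.95 CPM (SD, n = 3) in STAT3cKO, a difference of -0.38 log2 units (edgeR adjusted p = 0.0147). Without replicate 3 or 4 of wild type or replicate 3 of STAT3cKO its adjusted p was 0.0501 to 0.0667. Of 14 receptor genes tested, 4 were lower and none higher. Reck and Adgra2, which form a receptor complex for particular Wnt ligands on endothelial cells, had log2 fold changes of -0.66 and -0.38 (edgeR adjusted p = 0.011 and 0.0216), and the Frizzled receptors Fzd5 and Fzd1 of -0.69 and -0.55 (edgeR adjusted p = 0.0344 and 0.0435). The part in this of the lower endothelial markers was not tested. The calls of Adgra2, Fzd5 and Fzd1 were lost with the length and GC offset and when any of 4 or 5 single hearts was left out, wild type replicates 1 and 3 among them for each gene, with adjusted p of 0.0517 to 0.16. Reck missed the threshold when wild type replicate 3 was left out (adjusted p = 0.0582). Among R-spondins and their receptors, which amplify Wnt signals by sparing Frizzled proteins from degradation, 1 of 3 tested was lower. Rspo1 was at 1.96, 1.73 and 1.48 CPM in wild type and at 0.478, 0.519 and 1.09 CPM in STAT3cKO (log2 fold change -1.27 ± 0.39 SE, edgeR adjusted p = 0.0307). Its groups did not overlap, but leaving out any single heart other than STAT3cKO replicate 91 took its adjusted p to between 0.0564 and 0.106. Rspo1 entered the test through its wild-type counts, so nothing is read from its call.

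Inside the cell, 22 cytoplasmic genes of the beta-catenin pathway were tested, of which 4 were lower and 1 higher, with a median log2 fold change of -0.18. The counts in this paragraph stand beside 12.6% lower and 13.2% higher over all genes tested. Tnks, which marks the scaffold axin for degradation, was lower (-0.69 ± 0.13 log2 units, SE; edgeR adjusted p = 0.00265). Apc, the scaffold of the complex that degrades beta-catenin, was lower (-0.57 ± 0.11 log2 units, SE; edgeR adjusted p = 0.00316), and so was the kinase gene Csnk1d (-0.29 ± 0.08 log2 units, SE; edgeR adjusted p = 0.0213). Dvl1, which carries the signal from Frizzled receptors, was higher by 0.44 ± 0.10 log2 units (SE; edgeR adjusted p = 0.00811). The calls of Apc, whose transcript is 12811 nt long, and of Csnk1d were lost with the length and GC offset, and Csnk1d also lost its call without any single wild-type heart or STAT3cKO replicate 3 (adjusted p = 0.0522 to 0.0683). Of 12 TCF and LEF factors and nuclear cofactors tested, 1 was lower and 2 higher. Tle2, a co-repressor that TCF and LEF factors recruit, was at 8.39, 8.89 and 7.90 CPM in wild type and at 20.6, 21.7 and 16.9 CPM in STAT3cKO (log2 fold change 1.23 ± 0.13 SE, edgeR adjusted p = 0.000135). Pygo1, a co-activator of beta-catenin, was lower (-1.02 ± 0.23 log2 units, SE; edgeR adjusted p = 0.00779). Tcf7l2, a TCF factor, rose by 0.66 ± 0.18 log2 units (SE; edgeR adjusted p = 0.0195), a call lost without replicate 1 or 3 of wild type or replicate 91 of STAT3cKO (adjusted p = 0.0563 to 0.077).

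Genes commonly used as readouts of beta-catenin did not move together. Of 9 tested, 3 were lower, 1 was higher and 5 did not pass, beside 12.6% lower and 13.2% higher over all genes tested. Axin2, a feedback inhibitor of the pathway and its usual reporter gene, was at 3.91, 4.65 and 3.13 CPM in wild type and at 3.96, 0.974 and 2.90 CPM in STAT3cKO, and its groups overlapped (log2 fold change -0.58 ± 0.39 SE, edgeR adjusted p = 0.311; named after its values were seen). The cyclin gene Ccnd1 was lower (-0.54 ± 0.11 log2 units, SE; edgeR adjusted p = 0.0033). So was Wisp1, a matricellular protein gene (-1.16 ± 0.34 log2 units, SE; edgeR adjusted p = 0.0256). The paralogs Nkd1 and Nkd2, which encode feedback inhibitors that bind Dishevelled, went in opposite directions, at -1.47 ± 0.45 and 1.09 ± 0.35 (SE; edgeR adjusted p = 0.0299 and 0.042). The calls of Wisp1, Nkd1 and Nkd2 hung on single hearts. Wisp1 lost its call without replicate 1 or 3 of wild type or replicate 3 or 91 of STAT3cKO (adjusted p = 0.073 to 0.103). Nkd1 lost its call without wild type replicate 3, where its fold change was -0.84, or STAT3cKO replicate 3 or 91 (adjusted p = 0.0766 to 0.181), and with limma-voom and the offset. Nkd2 lost its call without replicate 1 or 4 of wild type or replicate 3 or 91 of STAT3cKO (adjusted p = 0.0988 to 0.14), and with library size alone.

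The planar cell polarity branch, which acts on the cytoskeleton without beta-catenin, had 6 of 10 tested genes lower and none higher, with a median log2 fold change of -0.49. These counts stand beside 12.6% lower over all genes tested and 31.7% lower among those with transcripts of 5000 nt or longer, such as Prickle2 (7860 nt) and Daam1 (5879 nt). The core polarity genes Prickle2 and Prickle1 were lower (-0.62 and -0.47 log2 units; edgeR adjusted p = 0.00488 and 0.00659), and so were the formin genes Daam2 and Daam1 (-0.70 and -0.28 log2 units; edgeR adjusted p = 0.0123 and 0.0343). Prickle2 was at 13.0, 13.8 and 14.8 CPM in wild type and at 9.35, 9.48 and 8.32 CPM in STAT3cKO, with no overlap. The calls of Prickle2 and Daam1 were lost with the length and GC offset. Daam2 lost its call without wild type replicate 3 (adjusted p = 0.0592), and Daam1 without replicate 3 or 4 of wild type or replicate 3 or 91 of STAT3cKO (adjusted p = 0.0656 to 0.134). Reads of several genes named here cannot be separated from those of an overlapping gene, since the counting strand is not known. The pairs are Adgra2 with Brf2, Fzd5 with Gm38058, Csnk1d with Gm28192, Tnks with Gm9939, Dvl1 with Tas1r3, Tle2 with Gm15917, Axin2 with Gm11670 and Ccnd1 with LTO1.

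**Figure D4:**
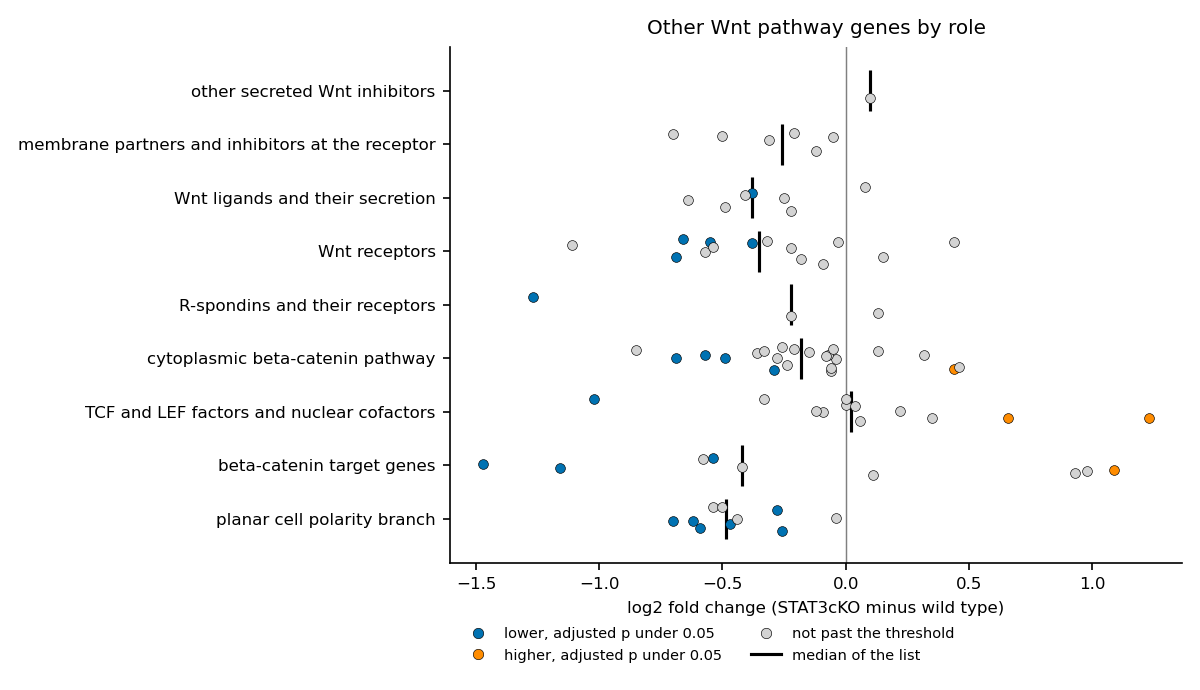
Log2 fold change (STAT3cKO minus wild type) of the 84 other Wnt pathway genes tested, 1 point per gene in rows by role, blue where lower and orange where higher at an edgeR adjusted p under 0.05, with a bar at the median of each list. Lower calls (20) outnumber higher ones (4), and the planar cell polarity row holds 6 of the lower calls.

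Sost and the deleted gene share chromosome 11, with 1022.9 kb between the end of Stat3 and the nearer end of Sost, so the neighbours were examined. Of 92 other genes tested that start within 2 Mb of the start of Sost, 17 were lower and 8 higher, with a median log2 fold change of -0.07. Over all genes tested the shares were 12.6% and 13.2%. The nearest genes tested were Meox1, a homeobox gene, at -0.17 ± 0.18 (SE; edgeR adjusted p = 0.521), and Dusp3, a phosphatase gene, at -0.31 ± 0.09 (SE; edgeR adjusted p = 0.0296). The exons of Dusp3 overlap those of Gm20659, and its call was lost with the length and GC offset and without replicate 1 or 4 of wild type or replicate 3 or 6 of STAT3cKO (adjusted p = 0.0641 to 0.106). The smallest p among the neighbours was that of the unnamed model C130046K22Rik, with 85, 81 and 88 counts in wild type against 0, 0 and 1 in STAT3cKO. It entered the test through its wild-type counts, and its exons overlap those of Gosr2. Plcd3, a phospholipase gene, and Acbd4, whose annotated span meets it at one end, rose by 0.85 ± 0.11 and 1.12 ± 0.15 log2 units (SE; edgeR adjusted p = 0.000479 and 0.000481). Apart from C130046K22Rik, no called neighbour had a fold change below that of Sost.

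**Figure D5:**
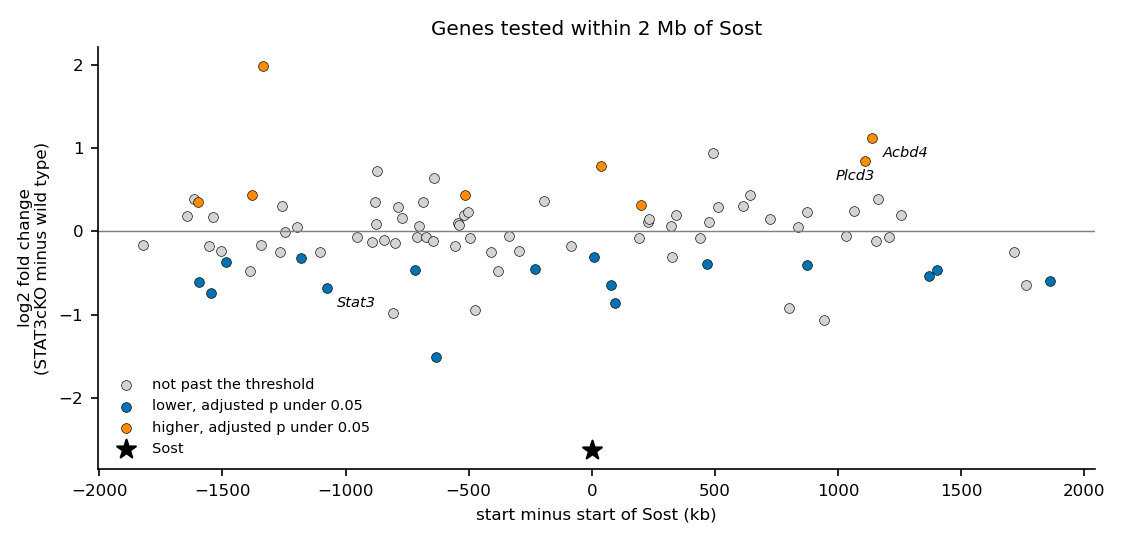
Log2 fold change (STAT3cKO minus wild type) of the genes tested within 2 Mb of Sost against distance from its start (kb), blue where lower and orange where higher at an edgeR adjusted p under 0.05. Sost (star) is at -2.63, and the nearest gene tested on each side, Meox1 and Dusp3, at -0.17 and -0.31. Mpp3, Cd300lg and Mpp2, next on the side of Dusp3, are at 0.79, -0.64 and -0.86. C130046K22Rik, with 1 count in STAT3cKO, is not drawn.

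The genes whose log2 CPM followed Sost most closely over the 6 hearts were taken from 11367 genes of at least 1 log2 CPM on average. They were Vps54, a vesicle tethering gene (Pearson r = 0.9988), Smarce1, a chromatin remodelling subunit (r = 0.995), Fbn1, which encodes the microfibril protein fibrillin-1 (r = 0.9936), the collagen gene Col1a2, which is also among the fibroblast markers (r = 0.9929), and Il6ra, the receptor for interleukin-6 (r = 0.9889). These r values describe 6 hearts that include the genotype difference and were picked as the highest of many. The fold changes behind them were far smaller than that of Sost, from -0.15 for Vps54 to -1.03 for Il6ra. Il6ra was at 5.77, 6.98 and 5.43 CPM in wild type and at 2.05, 3.12 and 3.67 CPM in STAT3cKO. As for Sost, its highest heart was wild type replicate 3 and its lowest STAT3cKO replicate 3. Exons of Il6ra overlap Gm42809, and those of Fbn1 overlap Gm9913.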

How the data were processed

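RNA of 6 mouse hearts was sequenced from libraries made by standard Illumina protocols, per the labels' protocols. HISAT2 (version not given) and the build GRCm38 were used, per the submitters' processing notes. The authors deposited raw read counts per gene symbol, with no normalization. The sources used here do not give the counting program, annotation or strand setting. Of 46095 symbols, 21080 had no count in any heart and 41483 (90.0%) matched the RefSeq table of GRCm38.p6.

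A low-count filter, filterByExpr of edgeR 4.0.16 (minimum count 10), was applied. Counts were scaled by TMM, and the genotypes were compared by the robust quasi-likelihood test of edgeR in R 4.3.3. SE was derived from the fold change and its F statistic. The scripts were tested on simulated data. The 10 genes and all lists were chosen with earlier results of these data known. From each list, up to 4 genes with the smallest adjusted p under 0.05 were named, or the 1 with the smallest p, and for Sost the 5 genes of highest Pearson r. From its neighbours, the 4 with the smallest p and the nearest on each side were named, and Stat3 is among the 4. Marker genes of highest level were named beside a result, and others named were chosen after their values were seen. Alternatives were DESeq2 size factors, upper-quartile factors, library size alone, no filter, a stricter one (1 CPM or more in 3 libraries and a mean count of 50), DESeq2 1.42.0, limma-voom (limma 3.58.1), an offset for a spline (5 degrees of freedom) on transcript length and GC content, and leaving out each heart. A length was known for 93.8% of genes tested.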

Additional observations from a re-analysis of the deposited data

How the results depend on the processing

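Sost was lower in STAT3cKO under every alternative that tested it, and the stricter filter left it out. Library size alone moved the median over all genes to -0.11 on the log2 scale and the share of calls that were higher from 51.3% to 29%. It gave 1109 genes higher, 31 Wnt pathway genes lower and 5 Sost neighbours higher, beside 18.7% lower and 7.66% higher over all genes. The length and GC offset gave 1088 genes lower (7.51% of all genes) and 9 Wnt pathway genes lower. The fit with no filter tested 110 Wnt pathway genes rather than 84. It gave 30 of them lower and 7 higher, beside 9.4% lower and 8.12% higher over all genes. Of the 10 genes, 2 were lower with the offset, where Lrp6 lost its call. The stricter filter gave 2, without Sost, and no filter gave 4. Leaving out each heart in turn gave 1198 to 1999 genes lower and 1237 to 1887 higher. In the Wnt pathway the ranges were 8 to 21 lower and 2 to 6 higher. Among Sost neighbours they were 11 to 18 lower and 4 to 10 higher. Of the 10 genes 3 to 4 were lower and 0 to 1 was higher, the 1 being Frzb without wild type replicate 3. The fourth lower gene was Sfrp5, which entered such fits through its wild-type counts, so nothing is read from its call. The fits that left out a heart also gave -0.19 to 1.38 for Sfrp2, -1.51 to 1.31 for Dkk3, -1.58 to 0.86 for Wif1 and -0.04 to 0.19 for Igfbp4. Dkk3 was 0.12 by limma-voom and Igfbp4 -0.01 with library size alone. Fewer samples enter the fits that leave out a heart, and for the others the cause was not tested. For 42 genes named one by one, 583 alternative fits gave 492 with the same direction and side of the threshold, 78 that lost a call, 6 that gained one and 7 that turned. No paired analysis was possible because the groups share only 1 replicate number. Counting error limits the low genes, among them Sost, Sfrp5, Dkk2, Sostdc1, Rspo1, Chrdl1 and Runx2. Like Sost, Rspo1, Chrdl1 and C130046K22Rik entered the test through their wild-type counts.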

Other observations

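BMP antagonists, some of which share the cystine-knot fold of sclerostin, mostly did not pass the test. Of 12 listed, 8 were tested, 2 were lower and none higher, with a median log2 fold change of 0.06. Shares over all genes tested were 12.6% lower and 13.2% higher. Bmper, a secreted modulator of BMP signals in vessels, was at 7.88, 8.53 and 7.57 CPM in wild type and at 3.75, 5.45 and 5.42 CPM in STAT3cKO (log2 fold change -0.71 ± 0.19 SE, edgeR adjusted p = 0.0157). Chrdl1, a chordin-like BMP antagonist, was at 1.49, 4.77 and 1.21 CPM in wild type and at 0.205, 0.909 and 0.547 CPM in STAT3cKO (log2 fold change -2.13 ± 0.64 SE, edgeR adjusted p = 0.0376). The groups did not overlap for either gene. Chrdl1 entered the test through its wild-type counts, so nothing is read from its call. The call of Chrdl1 was lost with limma-voom, with the length and GC offset and without wild type replicate 3, STAT3cKO replicate 3 or STAT3cKO replicate 91, with adjusted p of 0.0548 to 0.128. Without wild type replicate 3 its log2 fold change was -1.27. That of Bmper was lost without replicate 3 of wild type or replicate 3 of STAT3cKO (adjusted p = 0.0548 and 0.0596).

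Although the defining markers of bone were near 0, Runx2, the transcription factor that starts the osteoblast programme, was higher in STAT3cKO. It was at 0.515, 0.418 and 0.384 CPM in wild type and at 1.64, 2.21 and 2.14 CPM in STAT3cKO (log2 fold change 2.16 ± 0.36 SE, edgeR adjusted p = 0.00148). Runx2 entered the test through its STAT3cKO counts, and its exons overlap those of Runx2os1. Scx, a transcription factor of tendon and valve cells, was at 2.73, 4.71 and 2.30 CPM in wild type and at 6.69, 5.39 and 10.6 CPM in STAT3cKO (log2 fold change 1.23 ± 0.32 SE, edgeR adjusted p = 0.0167). Both genes were named after their values were seen, and neither group pair overlapped.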
